A study of Mus musculus with 8 samples.

Results

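The BCL2 family of survival and death genes was followed through 10 genes: the survival genes Bcl2, Bcl2l1 and Mcl1, the BH3-only genes Bcl2l11, Bmf, Pmaip1, Bbc3 and Bid, and the effector genes Bax and Bak1. Members were all probe sets of a mouse expression array whose only gene symbol in the platform annotation was one of these, and no probe set was chosen or dropped by its values. This gave 30 probe sets of 9 genes, out of 45101 probe sets in the table and 18193 genes with a probe set of their own. Mcl1 had 6 probe sets, Bcl2 and Bcl2l11 had 5 each, Bcl2l1 had 4, Bmf and Bid had 3 each, Bak1 had 2, and Pmaip1 and Bbc3 had 1 each. Bax was not analysed here, because the annotation used pairs no probe set with it alone.

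RNA of 7438 cells, a mouse mammary line, was hybridised to 8 arrays, with 2 arrays for each of 4 groups. In every group, controls included, the cells carried a glucocorticoid receptor fused to GFP and an estrogen receptor fused to Cherry, both driven by a tetracycline-regulated promoter and switched on by taking tetracycline away 24 h before hormone. Cells were plated 48 h ahead in medium with 10% charcoal-dextran treated serum, which is depleted of steroids. They were then left untreated, or given for 2 h either 100 nM dexamethasone (Dex, a synthetic glucocorticoid), 100 nM estradiol (E2, the main natural estrogen), or both (Dex+E2). The tagged receptors were therefore supplied by transgenes, and whether the cells also made receptors of their own was not examined here. The labels do not say whether the line is 1 clone. The labels do not state whether replicate arrays stem from different cultures; the p-values below reflect the spread among these arrays alone, and that spread may be technical. For 1 array with E2 (replicate 2) and 1 with Dex+E2 (replicate 1), the free-text note mentions chromatin immunoprecipitation; the groups were taken from titles and treatments, which put both among the expression samples.

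BCL2 family proteins decide whether the outer membrane of the mitochondrion stays intact. BAX and BAK1 can form pores that release cytochrome c and start the caspase cascade; BCL2, BCL-XL (the product of Bcl2l1) and MCL1 hold them in check; and BH3-only proteins such as BIM (Bcl2l11), PUMA (Bbc3), NOXA (Pmaip1), BMF and BID are the stress sensors that oppose the survival proteins or activate the effectors. Glucocorticoids kill lymphoid cells, in which BIM is a known mediator, but are known to protect mammary epithelial cells from death, and Bcl2 is a textbook estrogen-induced gene in breast cancer cells.

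The values are log2 levels made by the authors with robust multi-array averaging, so a difference of 1 is a 2-fold change. Levels of different probe sets were compared only by percentile, by rank of mean signal or in sums over marker lists. The arrays were alike: their medians ran from 5.58 to 5.66 and replicates correlated at 0.9961 to 0.9983 over all probe sets. Dex+E2 replicate 2 stood apart, with a mean correlation of 0.9951 with the other arrays against 0.9963 to 0.9973 for the rest, so the members' calls in comparisons of Dex+E2 with untreated or E2 are also given without it. Known hormone targets moved: the clock gene Per1 was higher than in untreated cells by 2.66 (Dex), 1.97 (E2) and 2.41 (both), Tsc22d3 (GILZ) by 2.82 with Dex and 2.26 with both, and the receptor co-chaperone gene Fkbp5 by 1.62 and 1.30 in the same order. Of 10 epithelial marker genes, 4 lay above the median probe set. These were Krt14 at the 77.2th, Epcam at the 66.1th, Krt5 at the 62.7th and Krt8 at the 53.4th percentile of all probe sets. Cdh1 was lowest, at the 4.11th. Of 10 mesenchymal markers 9 lay above the median probe set, from Col1a1 at the 51.2th to Vim at the 99.8th percentile. Thy1 was at the 49.3th. Of the epithelial markers, Cdh1 was thus at the low end of the array. Of immune markers 2 of 9 measured lay above the median probe set, of endothelial or adipose markers 2 of 7, and of milk protein genes 2 of 5. Of all these markers, Snai2 fell by 1.10 and Fabp4 rose by 2.65 with Dex, and no other passed in that comparison. The summed linear signal of the endothelial or adipose list was 197 to 215 in untreated and 304 to 316 in Dex arrays. Fabp4 was the only 1 of its 7 measured genes to pass with Dex, and the list's median Dex difference was -0.06. The part of these markers in the results was not tested.

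Tests used limma on all 45037 probe sets that are not array controls, with Benjamini-Hochberg adjustment over all of them; a probe set passed at an adjusted p under 0.05. With Dex, 4 of the 30 member probe sets passed against untreated, 3 of Bcl2l1 higher and that of Bbc3 lower, beside 0.924% of all probe sets tested (0.575% higher and 0.349% lower). With Dex+E2, 3 members passed (2 of Bcl2l1 higher, 1 of Bcl2 lower), beside 0.844% of all (0.471% higher and 0.373% lower). With E2 alone 0 of 30 passed in limma, beside 0.0355% of all; 5 of 30 had an unadjusted p under 0.05, beside 5.42% of all. With Dex both arrays lay above both untreated arrays for 8 of the 30 and below them for 9, beside 17.2% and 17.5% of all; with E2 they lay above for 12 and below for 3, beside 16% and 18.9% of all. Of the 12 above with E2, all but Bcl2 at 1457687_at were probe sets of Bcl2l11, Mcl1 or Bcl2l1. Probe sets of 1 gene are not independent, so the 12 do not count as 12 genes. The median difference over the 30 was 0.02 with Dex, also 0.02 with E2, and -0.01 with Dex+E2. The corresponding medians over all probe sets were 0.00, -0.01 and 0.00. In bulk cells, more RNA per cell and more cells of a type cannot be told apart.

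**Figure D1:**
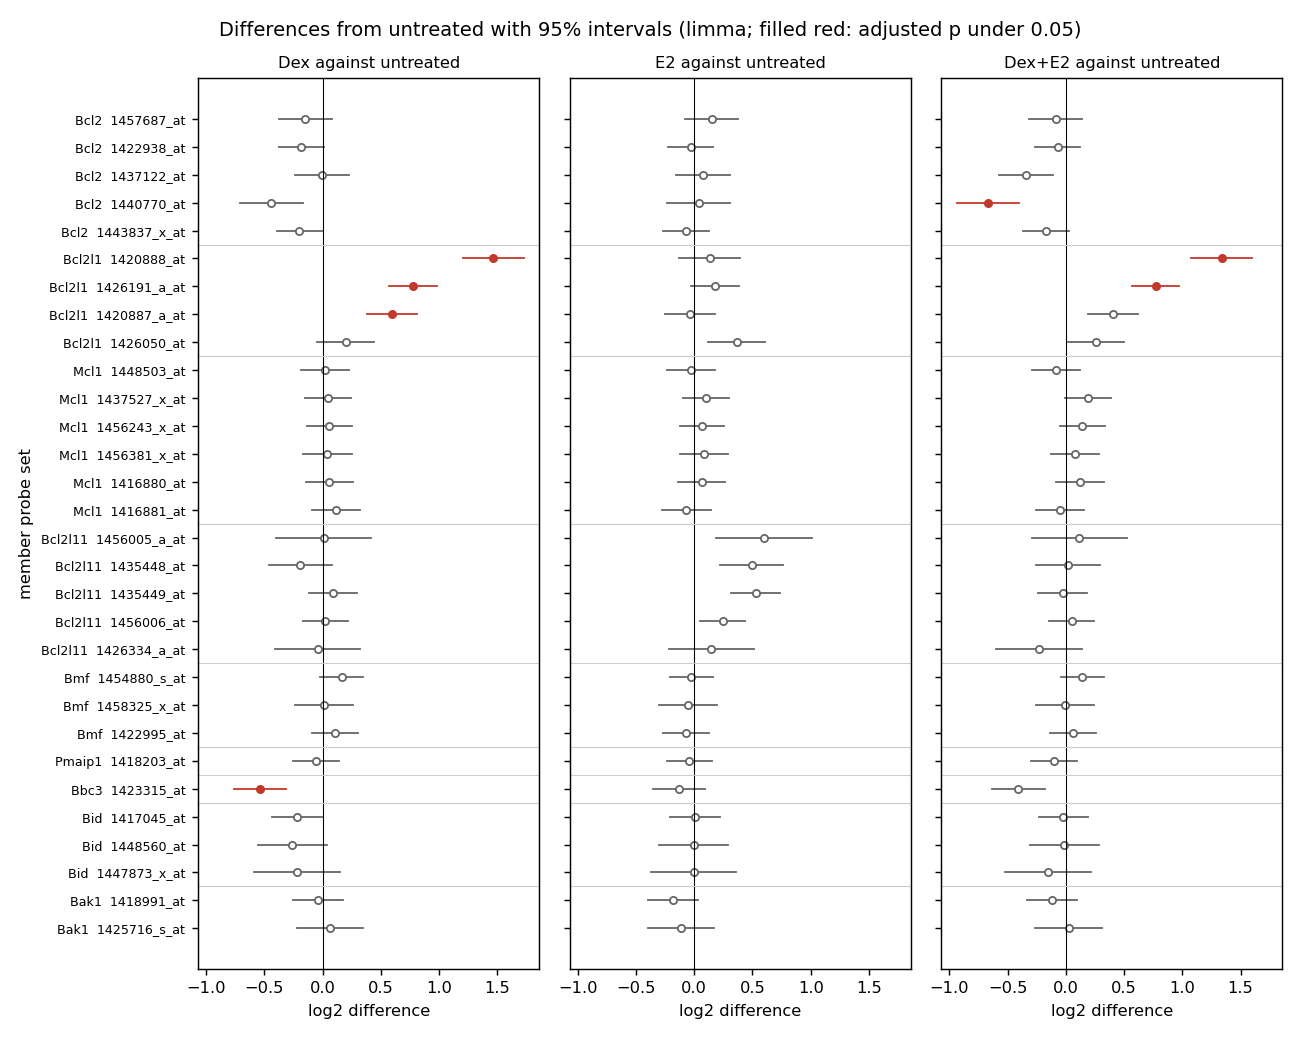
Log2 difference from untreated with its 95% confidence interval (limma, x axis) for each of the 30 member probe sets (y axis) under Dex, E2 and Dex+E2. Most intervals cross 0; filled points (adjusted p under 0.05) lie to the right for Bcl2l1 under Dex and Dex+E2, and to the left for Bbc3 under Dex and for Bcl2 under Dex+E2.

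Bcl2l1, which encodes the survival protein BCL-XL, rose with Dex. Its probe set with the highest mean signal, 1420888_at, read 8.53 and 8.61 in untreated arrays, 10.15 and 9.92 with Dex, 8.70 and 8.70 with E2, and 10.06 and 9.75 with Dex+E2. Every array with Dex lay above every array without it. The share of all probe sets separated in this way is not given here, so such separations below are description only. The Dex difference was 1.47 ± 0.12 (SE, 2 arrays against 2), a 2.76-fold rise with a 95% interval of 1.20 to 1.73 and an adjusted p of 0.000176 (limma, Benjamini-Hochberg). It stayed between 1.35 and 1.58 and past the threshold in all 16 alternative analyses, each array left out in turn included. With both hormones the rise was 1.34 ± 0.12 (adjusted p = 0.00039), and 1.49 without Dex+E2 replicate 2 (adjusted p = 0.000292). E2 alone gave 0.13 (adjusted p = 0.956).

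Of the 3 other Bcl2l1 probe sets 2 moved the same way with Dex. Probe set 1426191_a_at read 5.24 and 5.14 untreated, 5.95 and 5.97 with Dex, 5.45 and 5.28 with E2, and 5.98 and 5.93 with both. Here too the arrays with Dex stood above all the others; the Dex difference was 0.78 ± 0.091 (adjusted p = 0.00185) and the Dex+E2 difference 0.77 (adjusted p = 0.00207; 0.80 and 0.00879 without Dex+E2 replicate 2). Probe set 1420887_a_at read 5.48 and 5.26 untreated, 5.98 and 5.94 with Dex, 5.31 and 5.35 with E2, and 5.73 and 5.82 with both, again with no overlap between arrays with and without Dex. Its Dex difference of 0.59 ± 0.097 passed (adjusted p = 0.0158) but not without untreated replicate 2 (0.194), Dex replicate 1 (0.213) or Dex replicate 2 (0.138), and its Dex+E2 difference of 0.40 did not pass (0.137). The fourth, 1426050_at, at the 24.6th percentile of all probe sets, had differences of 0.20 (Dex), 0.36 (E2) and 0.26 (both), and none of these passed.

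**Figure D2:**
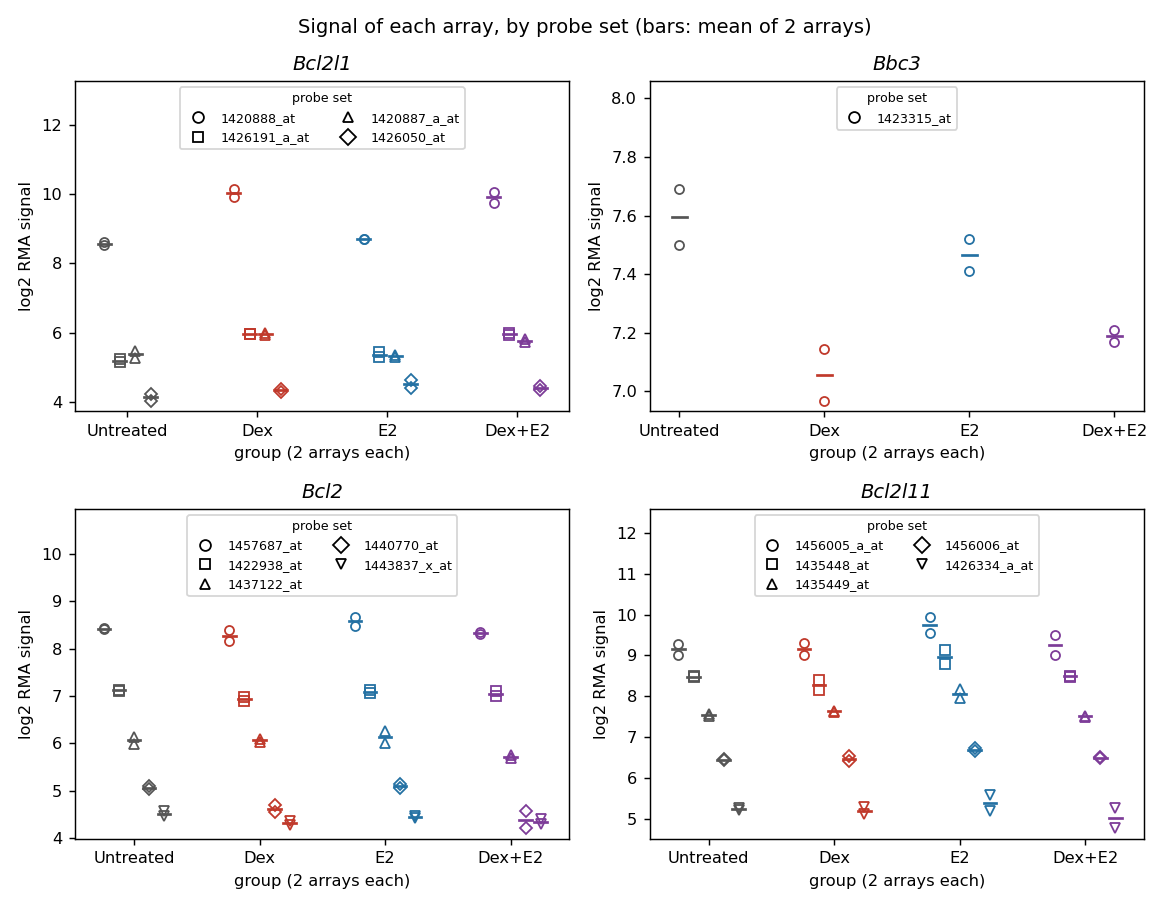
Log2 level (y axis) on each of the 8 arrays (points) and the mean of each pair (bars), by group (x axis), for all probe sets of Bcl2l1, Bbc3, Bcl2 and Bcl2l11 (symbols). In arrays with Dex, 3 of the 4 Bcl2l1 probe sets are higher than in all arrays without it. Lower in the same way are Bbc3 and Bcl2 at 1440770_at, 1457687_at and 1443837_x_at. Bcl2l11 at 1435449_at is highest in the E2 arrays.

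Sequence before annotated starts is shown for Bcl2l1, the member with the largest Dex response, and for the Bbc3 and Bcl2l11 windows that held a motif. Each is the 250 bases upstream of a start from the RefSeq table (build GRCm38.p6), 5′ to 3′ on the gene's own strand, in lower case with a matched motif in capitals. Searched on both strands were the glucocorticoid receptor palindrome (GNACA, 3 bases of any kind, TGTNC), its single arm AGAACA, the estrogen receptor palindrome (GGTCA, 3 bases of any kind, TGACC), its single arm AGGTCA, the AP-1 site TGANTCA and the FoxO site GTAAACA. A palindrome can overlap a match to its own arm. Bcl2l1 has 3 such windows:
Bcl2l1 window 1, chr2:152828490-152828739, minus strand: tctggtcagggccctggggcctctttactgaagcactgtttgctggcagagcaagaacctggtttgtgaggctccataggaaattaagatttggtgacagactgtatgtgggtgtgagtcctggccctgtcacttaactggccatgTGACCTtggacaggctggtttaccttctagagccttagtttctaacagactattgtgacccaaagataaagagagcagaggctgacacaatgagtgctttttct
Bcl2l1 window 2, chr2:152830718-152830967, minus strand: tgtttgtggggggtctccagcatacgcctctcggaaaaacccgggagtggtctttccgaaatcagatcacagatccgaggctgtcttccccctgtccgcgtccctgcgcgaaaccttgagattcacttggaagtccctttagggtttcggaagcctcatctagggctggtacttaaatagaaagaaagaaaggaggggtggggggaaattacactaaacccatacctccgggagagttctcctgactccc
Bcl2l1 window 3, chr2:152831729-152831978, minus strand: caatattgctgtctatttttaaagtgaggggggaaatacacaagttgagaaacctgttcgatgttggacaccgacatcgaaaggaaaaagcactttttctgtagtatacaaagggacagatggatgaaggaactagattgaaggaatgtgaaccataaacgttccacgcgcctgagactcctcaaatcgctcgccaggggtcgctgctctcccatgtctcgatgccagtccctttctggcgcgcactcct
The windows of Bbc3 and Bcl2l11 with a FoxO match follow:
Bbc3 window 2, chr7:16310011-16310260, plus strand: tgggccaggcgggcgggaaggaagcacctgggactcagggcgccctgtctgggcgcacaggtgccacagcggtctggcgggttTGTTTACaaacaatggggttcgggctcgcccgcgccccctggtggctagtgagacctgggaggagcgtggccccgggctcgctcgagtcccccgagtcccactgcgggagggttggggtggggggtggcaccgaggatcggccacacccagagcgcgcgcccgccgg
Bcl2l11 window 1, chr2:128125788-128126037, plus strand: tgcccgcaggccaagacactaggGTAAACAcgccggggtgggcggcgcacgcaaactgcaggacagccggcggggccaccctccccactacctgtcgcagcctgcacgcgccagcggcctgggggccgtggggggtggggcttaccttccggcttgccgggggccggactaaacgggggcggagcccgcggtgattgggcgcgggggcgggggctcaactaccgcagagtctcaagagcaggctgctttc
The capitals mark TGACCT, the estrogen receptor arm on the opposite strand, 104 bases before the start in the first Bcl2l1 window, TGTTTAC, the FoxO site on the opposite strand, 167 bases before the start in Bbc3, and GTAAACA, 227 bases before it in Bcl2l11. A window of Bmf holds AGGTCA 140 bases before its start. The search covered 16 windows of 9 member genes, with Bax among them. Pmaip1 was left out by a rule on the chromosome that was not applied to the 32851 comparison windows. The member counts below therefore say nothing of Pmaip1. Windows 2 and 3 of Bbc3 overlap. Of the 16 windows, 0 held either glucocorticoid receptor motif, the estrogen receptor palindrome or the AP-1 site. The estrogen receptor arm was in 2 and the FoxO site in 2. Among 32851 windows of the same length, 0.387% held the glucocorticoid receptor palindrome, 16.1% its arm, 0.0639% the estrogen receptor palindrome, 14% its arm, 6.75% the AP-1 site and 3.17% the FoxO site. A match is a run of letters and not a measured site, and the windows cover only the 250 bases before each start.

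At 4 of its 5 probe sets Bcl2, the founding survival gene of the family, had both Dex arrays below both untreated arrays. That pattern was seen at 17.5% of all probe sets, and none of the 5 passed with Dex alone. Probe set 1440770_at read 5.03 and 5.10 untreated, 4.55 and 4.70 with Dex, 5.14 and 5.06 with E2, and 4.58 and 4.21 with both. The arrays with Dex lay below all the others, but the probe set was dim, at the 33.9th percentile. Arrays with Dex also lay below all the others at 1457687_at (80.1th percentile) and 1443837_x_at (26th), which did not pass in any comparison. Its Dex difference was -0.44 and did not pass (adjusted p = 0.250); with both hormones it fell by 0.67 ± 0.12 (adjusted p = 0.0314). That call did not hold without Dex+E2 replicate 2 (-0.48, adjusted p = 0.141), without untreated replicate 1 (0.198) or 2 (0.316), without either Dex array (0.0681 each) or without either E2 array (0.0536 each). The 4 other Bcl2 probe sets differed by -0.20 to 0.00 with Dex and by -0.34 to -0.07 with both, and none passed. Under E2 alone none of the 5 passed.

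Mcl1, whose short-lived protein restrains BAK1, gave strong signals, with its 6 probe sets at the 84th to 96.1th percentile, and did not pass in any comparison. Its probe set 1448503_at read 11.11 and 11.19 untreated, 11.18 and 11.16 with Dex, 11.11 and 11.13 with E2, and 11.16 and 10.97 with both, and the groups overlapped. At 1437527_x_at, 1456243_x_at, 1456381_x_at and 1416880_at, though, both E2 arrays lay above both untreated arrays, by at most 0.10 in the mean. That pattern was seen at 16% of all probe sets. Over its 6 probe sets, differences ran from 0.02 to 0.11 with Dex, with 95% intervals reaching from -0.19 to 0.32, from -0.07 to 0.10 with E2 and from -0.08 to 0.19 with both.

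Among the BH3-only genes, Bbc3, which encodes PUMA, fell with Dex. Probe set 1423315_at read 7.50 and 7.69 untreated, 7.14 and 6.97 with Dex, 7.52 and 7.41 with E2, and 7.21 and 7.17 with both. Every array with Dex lay below every array without it. The Dex difference was -0.54 ± 0.10, with a 95% interval of -0.76 to -0.31 and an adjusted p of 0.0363. The call was lost without untreated replicate 1 (adjusted p = 0.0956) or 2 (0.411), Dex replicate 1 (0.126) or 2 (0.433), or either E2 array (0.0581 each). With both hormones the difference was -0.41 (adjusted p = 0.159), and with E2 alone -0.13 (0.952).

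Bcl2l11, which encodes BIM, had both E2 arrays above both untreated arrays at 4 of 5 probe sets, beside 16% of all. None of the 5 passed against untreated, and probe sets of 1 gene are not independent observations. Probe set 1435449_at read 7.56 and 7.51 untreated, 7.60 and 7.65 with Dex, 7.96 and 8.17 with E2, and 7.49 and 7.53 with both. The 2 E2 arrays were above the other 6. The E2 differences of its 5 probe sets were 0.60, 0.49, 0.53, 0.24 and 0.15, and their adjusted p-values lay between 0.192 and 0.972. In no alternative analysis did any of them pass. The arrays of 1435448_at also ordered this way, with 8.79 and 9.13 under E2 against 8.48 and 8.46 untreated. With Dex added to E2 the level of 1435449_at was lower than with E2 alone by 0.55 ± 0.094 (adjusted p = 0.0454), which did not pass without either untreated array (0.109 each), either Dex array (0.118 each), E2 replicate 1 (0.0963) or 2 (0.349), or Dex+E2 replicate 2 (0.139), nor after a second quantile normalization (0.0692) or with only these 2 groups fitted (0.345). The other 4 probe sets differed by -0.48 to -0.19 in that comparison and did not pass.

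The remaining BH3-only genes did not pass in any comparison. Bmf differed by 0.01 to 0.16 with Dex over its 3 probe sets. At 1454880_s_at and 1422995_at its arrays with Dex lay above all arrays without it. Bid, whose product is cut by caspase 8, read 10.02 and 10.16 untreated and 9.82 and 9.92 with Dex at 1417045_at, and its 3 probe sets differed by -0.22, -0.26 and -0.22, with adjusted p from 0.836 to 1. With both hormones Bid differed by -0.15 to -0.01. Pmaip1, which encodes NOXA, lay at the 0.768th percentile of all probe sets, with group means of 2.88 to 2.98, near the floor of the array, where a difference in level is compressed. Of the effectors, Bak1 read 8.57 and 8.49 untreated, 8.51 and 8.48 with Dex, 8.44 and 8.27 with E2, and 8.49 and 8.33 with both at 1418991_at; the E2 arrays lay below the untreated ones and neither of its 2 probe sets passed.

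The effect of E2 in Dex-treated cells and the interaction of the hormones were both tested. Only the interaction asks whether E2 altered the Dex response. Adding E2 to Dex moved 0 of the 30 members past the threshold in limma, beside 0.00666% of all probe sets, with 1 at an unadjusted p under 0.05 (4.66% of all). The interaction, the Dex difference with E2 minus that without, passed for 0 members, beside 0.00222% of all, with 2 at an unadjusted p under 0.05 (5.46% of all). For Bcl2l1 at 1420888_at it was -0.26, with a 95% interval of -0.63 to 0.11 (adjusted p = 0.883; -0.10 without Dex+E2 replicate 2), an interval that holds 0 and also a response smaller by up to 0.63. For Bbc3 it was 0.26 (adjusted p = 0.881). The lowest interaction p among the members belonged to Bcl2l11 at 1435449_at, -0.64 ± 0.13, with an adjusted p of 0.669.

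Set against E2 alone, Dex+E2 gave 4 members past the threshold, beside 0.335% of all (0.204% higher and 0.131% lower): 2 of Bcl2l1 higher, and 1 each of Bcl2 and Bcl2l11 lower. Bcl2l1 at 1420888_at rose by 1.21 (adjusted p = 0.00281; 0.0608 when only the 2 groups were fitted), and by 1.36 without Dex+E2 replicate 2 (adjusted p = 0.00167). At 1426191_a_at the rise was 0.59 (adjusted p = 0.0291), which was lost in most leave-one-out fits: without either untreated array (0.0714 each), either Dex array (0.0829 each), E2 replicate 1 (0.0975) or 2 (0.229), or Dex+E2 replicate 2 (0.0857), and with only these 2 groups fitted (0.258). The Bcl2l1 probe set 1420887_a_at, at 0.44 (adjusted p = 0.129), passed without Dex+E2 replicate 1 (0.0477). Bcl2 at 1440770_at fell by 0.70 (adjusted p = 0.0472). That was lost without Dex+E2 replicate 2 (-0.52, adjusted p = 0.167), either untreated array (0.116 each), either Dex array (0.107 each), or E2 replicate 1 (0.217) or 2 (0.208), and with only these 2 groups fitted (0.335). Averaged over both backgrounds, the Dex effect passed for 5 members, beside 1.37% of all (0.679% higher and 0.693% lower): Bcl2l1 at 1420888_at (1.34, adjusted p = 2.07e-05), 1426191_a_at (0.68, 0.000285) and 1420887_a_at (0.52, 0.00293), Bbc3 (-0.41, 0.0188) and Bcl2 at 1440770_at (-0.57, 0.00653). The Bbc3 call was lost without untreated replicate 2 (0.112), Dex replicate 2 (0.113) or E2 replicate 1 (0.0902). The Bcl2 call was lost without untreated replicate 2 (0.0524) or Dex replicate 1 (0.0556). The average E2 effect passed for 0 members in limma, beside 0.0533% of all, with 4 at an unadjusted p under 0.05 (4.23% of all).

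**Figure D3:**
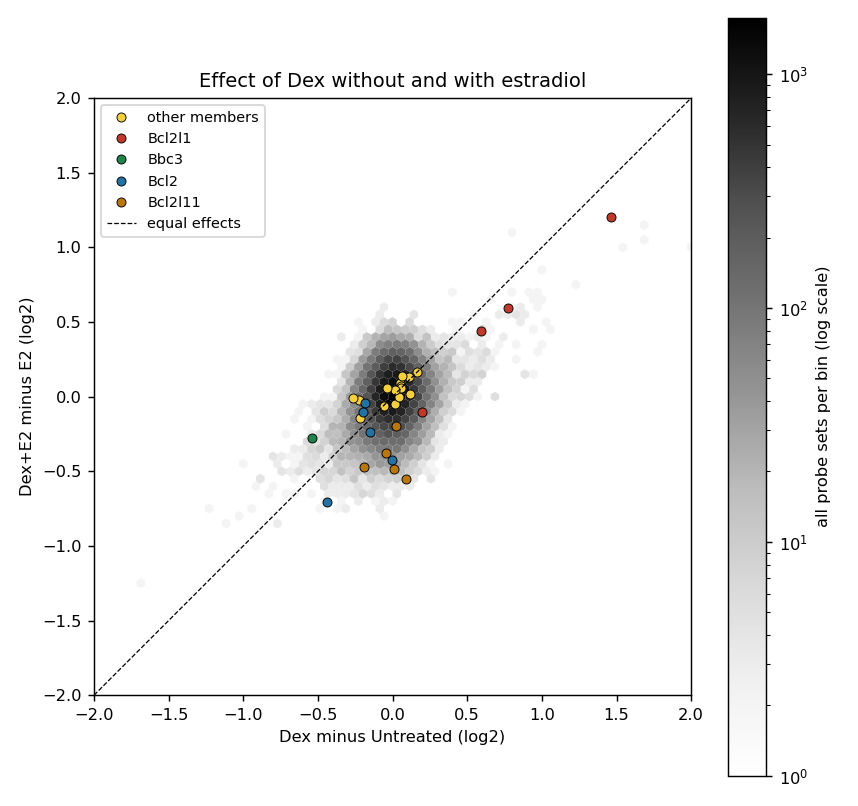
The log2 difference of Dex from untreated (x axis) against that of Dex+E2 from E2 (y axis) for the member probe sets, over the density of all probe sets tested; 29 probe sets beyond 2 on either axis are not drawn. Bcl2l1 at 1420888_at lies at 1.47 and 1.21.

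By the likeness of their 4 group means, over 942 to 944 candidate probe sets that spanned at least 0.5, the 3 genes nearest to Bcl2l1 at 1420888_at were Tob2, Dusp1 and Dok1, with Pearson correlations over the 8 arrays of 0.996, 0.996 and 0.992. Dusp1, a phosphatase that switches off MAP kinases, rose by 2.54 with Dex. Nearest to Bbc3 were Ppargc1b, Fhdc1 and Insig1 (0.971, 0.859 and 0.924 over the 8 arrays), and nearest to Bcl2 at 1440770_at were Nabp1, Mplkip and Zfp955a (0.953, 0.901 and 0.939). These correlations describe arrays that share the same 4 groups and carry no test.

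Of 65 further genes of the pathway, 57 were measured and the others were not analysed here. With Dex 2 of the 57 rose and 1 fell, beside 0.924% of all probe sets called, or 1.47% with 1 probe set per gene. Cflar encodes the caspase 8 inhibitor c-FLIP. Its arrays read 8.45 and 8.37 untreated, 9.01 and 9.19 with Dex, 8.78 and 8.76 with E2, and 9.04 and 8.70 with both. The Dex rise of 0.69 ± 0.12 passed (adjusted p = 0.0205), a call lost without either untreated array or either Dex array. With Dex+E2, Cflar differed by 0.46 from untreated and 0.10 from E2, and neither passed (limma, adjusted p = 0.179 and 0.763). The average Dex effect of 0.40 did not pass (0.0523). Foxo3, a transcription factor that activates Bcl2l11 and Bbc3 in other settings, read 8.68 and 8.64 untreated and 9.58 and 9.56 with Dex, rising by 0.91 ± 0.11 (adjusted p = 0.00179), by 0.95 ± 0.11 with both hormones (0.00143), and passed in all 16 alternatives of each comparison. Against E2 alone it rose by 0.63 with Dex+E2 (adjusted p = 0.0419), lost without either untreated array (0.107 each), either Dex array (0.112 each), E2 replicate 1 (0.217) or Dex+E2 replicate 2 (0.0857), with arrays shifted to a common median (0.0707), or with only these 2 groups fitted (0.345). Ddit3, the stress factor CHOP, fell by 0.58 ± 0.10 with Dex (adjusted p = 0.0236), lost without untreated replicate 2 (0.259), Dex replicate 1 (0.331) or Dex replicate 2 (0.118). Jun, an AP-1 subunit, read 9.76 and 9.84 untreated, 9.28 and 9.19 with Dex, 9.53 and 9.15 with E2, and 9.04 and 8.68 with both. It fell by 0.94 ± 0.14 with both (adjusted p = 0.0110), a call lost without untreated replicate 1 or 2, or Dex+E2 replicate 2. Jun differed by -0.57 with Dex alone and -0.46 with E2 alone, and neither passed (limma, adjusted p = 0.172 and 0.758). Myc, named after its values were seen, differed by -0.99 ± 0.20 with both and did not pass (adjusted p = 0.0544). With E2 alone 0 of the 57 passed in limma, beside 0.0355% of all probe sets, and 5 had an unadjusted p under 0.05, beside 5.42% of all.

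By list, 0 of 12 other BCL2 family genes, 0 of 13 caspase and apoptosome genes and 0 of 6 death receptors and adaptors passed with Dex. So did 0 of 11 partners and turnover factors, 1 of 6 caspase inhibitors and 2 of 9 upstream transcription factors. Of all probe sets 0.924% were called with Dex, or 1.47% with 1 probe set per gene. At those shares, 0 calls in a list this short says little. Averaged over both backgrounds, 1 of the 57 genes rose with Dex and 3 fell. Of all probe sets 1.37% were called in that comparison, or 2.22% with 1 probe set per gene. Foxo3 rose by 0.77, while Ddit3 fell by 0.51, Jun by 0.52 and Bcl2l2, the survival gene for BCL-W, by 0.36. Their adjusted p-values (limma) were 0.00036, 0.00452, 0.0327 and 0.0300 in that order. The Jun call was lost without untreated replicate 1 (0.124) or 2 (0.178), Dex replicate 1 (0.132) or 2 (0.163), E2 replicate 1 (0.106) or Dex+E2 replicate 2 (0.0764). The Bcl2l2 call was lost without untreated replicate 1 (0.126) or 2 (0.140), Dex replicate 1 (0.165) or 2 (0.130), E2 replicate 2 (0.118) or Dex+E2 replicate 2 (0.0788). The arrays of Bcl2l2 read 7.83 and 7.84 untreated, 7.58 and 7.60 with Dex, 8.01 and 8.25 with E2, and 7.68 and 7.61 with both, so the Dex arrays were lowest and the E2 arrays highest.

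**Figure D4:**
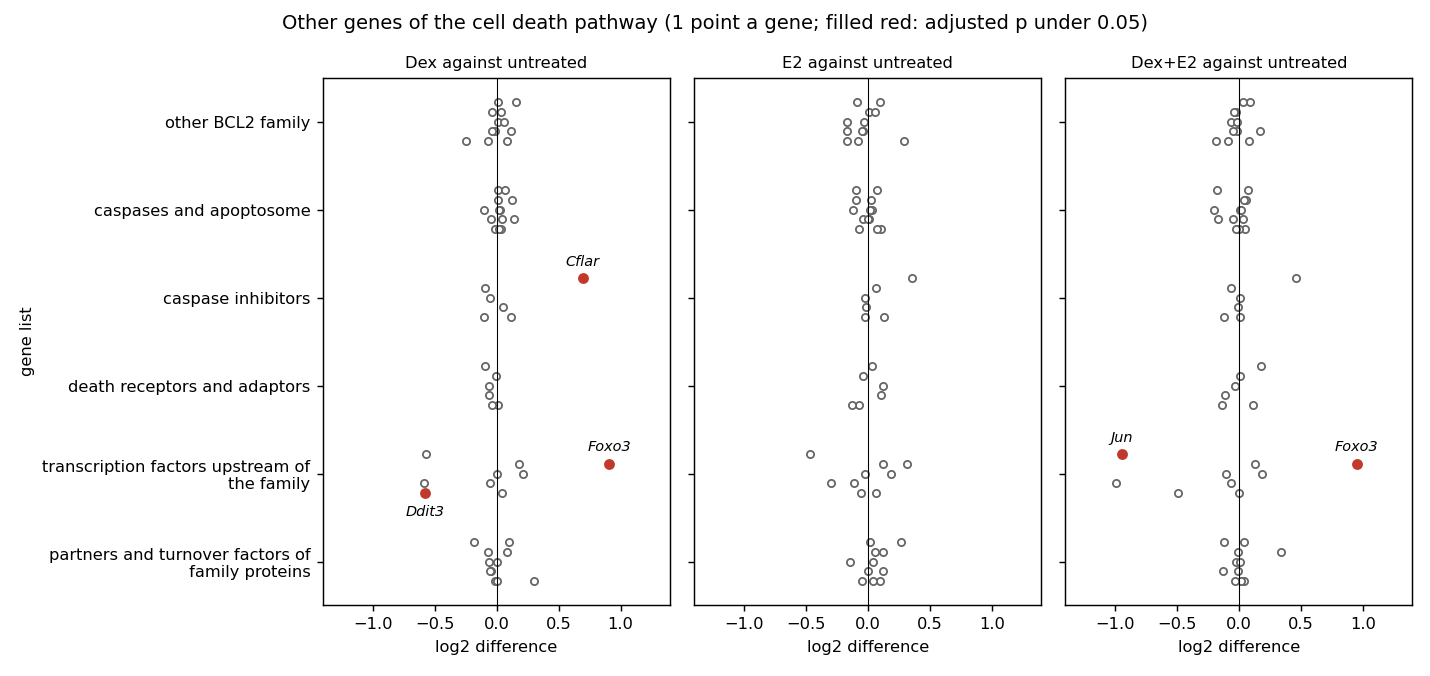
Log2 difference from untreated (x axis) for the 57 measured genes of 6 pathway lists (y axis), under Dex, E2 and Dex+E2. Foxo3 and Cflar lie to the right under Dex, Ddit3 to the left, and Jun (-0.94, filled) and Myc (-0.99, open, not past the threshold) to the left under Dex+E2.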

How the data were processed

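The deposited values are log2 signals of 45101 probe sets on 8 arrays, produced by the authors, per the submitters' processing notes, with RMA (robust multi-array averaging) in Affymetrix Expression Console, versions not given; RMA subtracts background and equalises array distributions, which compresses changes of dim probe sets. Columns were matched to samples by name. Gene names come from the platform's annotation: 34945 of those tested have 1 gene symbol, while 932 of all deposited probe sets have several and 9211 have none listed.

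After leaving out 64 array controls, 45037 probe sets were fitted with limma 3.58.1 (R 4.3.3), with a mean for each of the 4 groups and all 8 arrays in 1 fit (4 residual and 6.29 prior degrees of freedom), giving 8 comparisons with Benjamini-Hochberg adjustment over all probe sets. The median standard error of a difference was 0.102; the number of arrays limits the precision. On simulated data for Dex against untreated with 45037 probe sets, 18 of 50 changes of 0.5 and 48 of 50 changes of 1 were recovered. The text names every member, 3 control genes, up to 4 list genes past the threshold per list and comparison, and the 3 genes most alike to each called member by group means. For list genes only the probe set of highest mean signal was used. Alternatives changed the probe sets tested, the prior, the groups fitted, a replicate block, the scaling, or left out each array. Members and lists were chosen with earlier results of these data known.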

Additional observations from a re-analysis of the deposited data

How the results depend on the processing

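Up to 16 alternatives were run per comparison of 2 groups and 15 for those of 4. No called value changed sign under any of them. The count of members past the threshold was 4 for Dex against untreated, and 2 with 1 probe set per gene, 2 with dim probe sets left out and 2 to 4 with each array left out. For Dex+E2 against untreated it was 3, with 1, 1 and 2 to 3 under the same settings. For Dex+E2 against E2 it was 4, with 1, 2 and 1 to 5, and 0 when only the compared groups were fitted. For the average Dex effect it was 5, with 2, 2 and 3 to 5. With 1 probe set per gene 9 member probe sets remain, and 23 with dim ones left out, which lowers the counts by construction. Of all probe sets in these 2 settings, 1.47% and 1.99% were called for Dex, and 1.46% and 1.87% for Dex+E2. The shares were 0.627% and 0.835% for Dex+E2 against E2, and 2.22% and 2.87% for the average Dex effect. When only the compared groups were fitted, 0.0355% of all were called for Dex+E2 against E2.

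No label says what the replicate numbers share. The correlation of same-numbered deviations was 0.16 between untreated and Dex, 0.312 between untreated and E2, and 0.235 between Dex and E2, but -0.248, -0.105 and -0.194 between Dex+E2 and untreated, Dex and E2, so the numbers were not taken to pair the samples. With the replicate number as a block, 3 members passed for Dex, 2 for Dex+E2, 2 for Dex+E2 against E2 and 5 for the average Dex effect, beside 0.826%, 0.75%, 0.238% and 1.18% of all probe sets. Calls not made under the block were those of Bbc3 for Dex (adjusted p = 0.0757, limma), Bcl2 at 1440770_at for Dex+E2 (0.0691) and against E2 (0.1004), Bcl2l11 at 1435449_at and Foxo3 against E2 (0.0812 and 0.0966), and Bcl2l2 for the average Dex effect (0.0555).

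Over all probe sets, the 416 calls for Dex ran from 170 to 498 with each array left out, the 380 for Dex+E2 from 169 to 1436, and the 151 for Dex+E2 against E2 from 30 to 1974. The 2 arrays a group limit what small differences can pass.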
